A study of Mus musculus with 6 samples.

Results

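The solute carriers described here are 127 of the 16472 genes of the authors' deposited table. They were chosen by symbol alone: names made of Slc, a family number, the letter a and a member number, of which the table held 201, less the families Slc1, Slc7, Slc25, Slc30, Slc38 and Slc39 and the genes Slc3a2, Slc6a9 and Slc40a1, which removed 74. Symbols with another letter, such as the Slc35b genes, are not among them. The 127 genes belong to 38 families and were grouped into 12 classes by main substrate. The name groups proteins of different folds. The rule reads no measured value, but the members and classes were chosen with earlier results of these data known.

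The values come from HT22, an immortalised line derived from mouse hippocampal cells, grown in serum-containing medium. A set of 3 cultures received AA147, a small molecule known to activate the stress regulators ATF6 and NRF2, and 3 received the DMSO vehicle; all were collected after 16 h. The labels give the AA147 concentration as 10 mM; the unit could not be checked from the data and may be a slip for micromolar. No other dose or time enters. All 6 libraries come from 1 line, and nothing in the labels says that the cultures were independent experiments, so the p-values measure the spread between these libraries only.

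Of 18 neuronal marker genes, 4 were in the table and 14 were not. Tubb3 was the only one with a mean above 100, at a log2 fold change of 0.43 (adjusted p 5.67e-05) per the authors' deposited table. The vesicular glutamate transporter gene Slc17a7, a marker of excitatory neurons and itself a member, had a mean of 3.93 per the authors' deposited table. All 6 mesenchymal markers had means of at least 2983 per the authors' deposited table, and 4 of them were negative with an adjusted p under 0.05. Of 6 markers each for astrocytes, oligodendrocytes and microglia, 1, 0 and 1 reached a mean of 100. These were the astrocyte marker Slc1a3 at -1.30 (adjusted p 2.39e-45) and the microglial Tmem119 at -0.49 (adjusted p 2.14e-04), while the microglial Csf1r, at a mean of 48.0, had 0.95 (adjusted p 0.0278) per the authors' deposited table. The part of these markers in the results on transporters was not tested. No value for a single library was analysed here, so each gene is given by its mean over the libraries and by its fold change. The header names no numerator: positive values are taken to mean higher with AA147, and every direction below depends on that reading.

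Solute carriers are membrane proteins that move small solutes, either down a gradient or coupled to the gradient of an ion such as sodium or protons. They supply cells with sugars, nucleosides, vitamins and metals, export lactate, set intracellular pH and chloride, and fill the Golgi and lysosomes with the solutes those compartments need. In brain tissue, glucose enters largely through members of the Slc2 family, lactate passes between cells through Slc16 proteins, and Slc12 proteins set the chloride gradient on which inhibitory signalling rests.

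An adjusted p under 0.05 is used as the threshold for a call throughout, from the DESeq2 test reported in the authors' deposited table. Of the 127 genes, 102 had an adjusted p, and 24 passed, or 23.5%, beside 20.2% of all 13597 genes with an adjusted p. Positive calls numbered 11, or 10.8%, beside 9.05% of all genes, and negative calls 13, or 12.7%, beside 11.1%. The share of transporters called was thus near the share in the whole table, and no more is read from it. Among the 77 members with a mean of at least 100, the calls were 10 positive and 10 negative, or 26% in all, beside 23.8% of all genes at that level. The median log2 fold change of these 77 genes was 0.00, beside 0.01 for all genes with such a mean, and their median absolute value was 0.18, beside 0.14.

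Most of the called changes were small. Of the 102 members with an adjusted p, 8 were called and changed by at least 0.5 on the log2 scale in either direction, or 7.84%, beside 5.85% of all tested genes, and 4 by at least 1, or 3.92%, beside 1.88%. Per the authors' deposited table, the 4 were Slc11a1 at 3.03, Slc2a5 at 1.02, Slc9a9 at -1.16 and Slc14a1 at -1.33. Only Slc2a5 among them had a mean above 100.

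**Figure D1:**
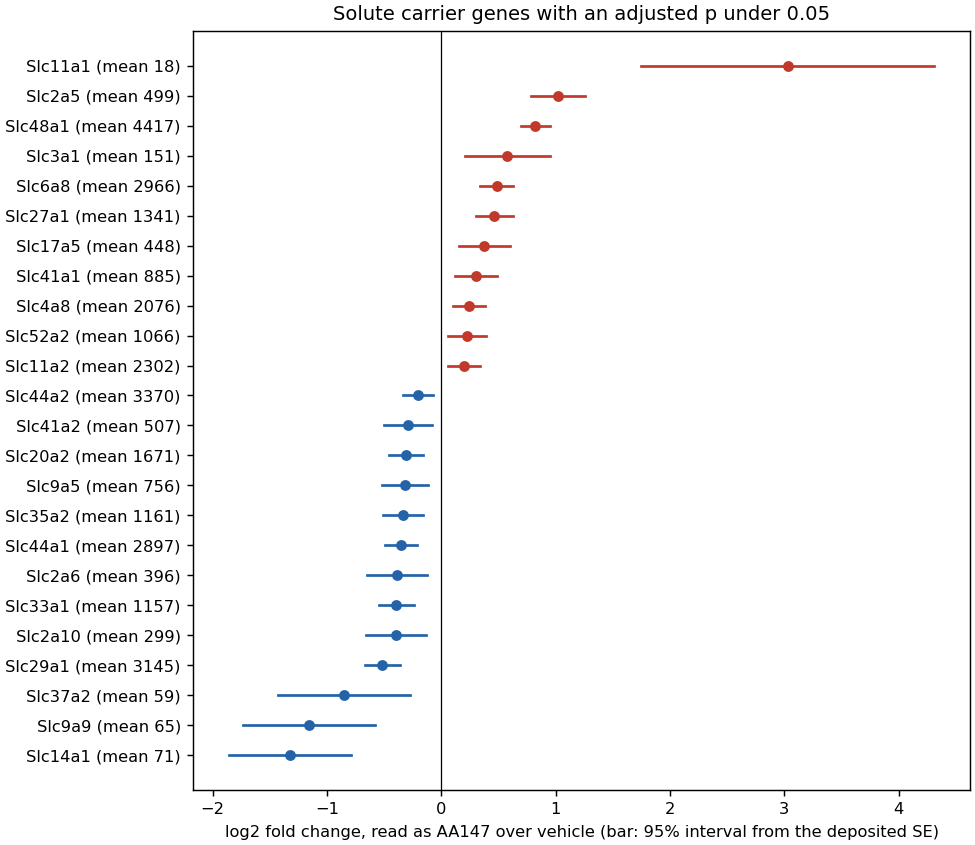
Log2 fold changes of the 24 called solute carrier genes, with the mean normalized count beside each name; points are the deposited estimates and bars their 95% intervals from the deposited standard errors (red positive, blue negative). Slc11a1 has the widest interval, from 1.75 to 4.31, and most other genes lie within 1 of no change.

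The promoters of 4 called genes are shown first as sequence. RefSeq start sites of assembly GRCm38.p6 were matched by symbol for 94 of the 127 members and for 18 of the 24 called ones, and the 250 bases before each start were searched on both strands. The motifs were the core of the antioxidant response element bound by NRF2 (TGACNNNGC), the C/EBP-ATF response element (TGATGNAA) and the E-box found in lysosomal gene promoters (CACGTG). The sequences shown are those of the positive and the negative called gene of largest fold change among genes with a mean of at least 100 and 1 start (Slc2a5 and Slc2a10, which belong to 1 family), followed by the called genes that hold the antioxidant core. Capitals mark a motif match, and each sequence reads 5′ to 3′ towards the start.
Slc2a5 (chr4:150119094-150119343, plus strand, GRCm38.p6): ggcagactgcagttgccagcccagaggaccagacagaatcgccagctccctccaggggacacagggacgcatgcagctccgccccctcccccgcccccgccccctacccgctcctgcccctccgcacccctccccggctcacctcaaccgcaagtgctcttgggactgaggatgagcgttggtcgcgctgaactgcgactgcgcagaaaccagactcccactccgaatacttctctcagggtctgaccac
Slc2a10 (chr2:165503647-165503896, plus strand, GRCm38.p6): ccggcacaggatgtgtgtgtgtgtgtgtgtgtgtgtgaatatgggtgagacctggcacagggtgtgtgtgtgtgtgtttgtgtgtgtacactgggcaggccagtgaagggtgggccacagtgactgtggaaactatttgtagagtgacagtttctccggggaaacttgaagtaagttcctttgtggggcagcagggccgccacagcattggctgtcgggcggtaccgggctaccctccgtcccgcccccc
Slc41a2 (chr10:83337818-83338067, minus strand, GRCm38.p6): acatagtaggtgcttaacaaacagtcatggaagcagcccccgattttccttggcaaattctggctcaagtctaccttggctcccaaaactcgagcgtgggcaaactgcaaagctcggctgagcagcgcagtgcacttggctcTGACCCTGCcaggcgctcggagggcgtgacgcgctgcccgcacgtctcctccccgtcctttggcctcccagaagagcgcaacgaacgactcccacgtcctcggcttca
Slc29a1 (chr17:45599619-45599868, minus strand, GRCm38.p6): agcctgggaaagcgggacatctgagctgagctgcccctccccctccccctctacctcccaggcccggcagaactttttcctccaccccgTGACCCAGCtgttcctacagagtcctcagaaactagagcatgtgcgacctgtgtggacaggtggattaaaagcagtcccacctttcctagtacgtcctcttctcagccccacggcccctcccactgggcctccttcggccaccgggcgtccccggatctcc
The Slc2a5 and Slc2a10 windows hold no match to any of the motifs searched. The window of Slc41a2, a magnesium transporter gene, holds 1 antioxidant core. Of the 8 annotated starts of the nucleoside transporter gene Slc29a1, 2 hold the core, and the start shown is the one farthest upstream. Both genes were called negative. The antioxidant core stood before 0 of the 7 called positive genes that had a start and before 2 of the 11 called negative ones, or 18.2%. It stood before 11.5% of all 27025 genes with a start. Counted by start, it was found for 3 of 20 in the called negative genes, or 15%, beside 10.2% of all starts. The 27025 genes include many not measured here, so none of the shares of all genes given for motifs is a like-for-like background. The CACGTG E-box was present for 16 of the 94 members, or 17.0%, and for 6.86% of all genes. Among called members it stood before Slc27a1 on the positive side and before Slc29a1 and Slc33a1 on the negative side. The C/EBP-ATF element was found for Slc9a9 among the called members and for 3.91% of all genes. These are matches of letters in 1 window, and no binding was measured.

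The sugar and polyol transporters held the largest positive change of any member with a mean above 100. Slc2a5, which encodes the fructose transporter GLUT5, had a mean of 499 normalized counts and a log2 fold change of 1.02 (standard error 0.12; adjusted p 1.4e-15) per the authors' deposited table. If that mean and fold change are taken at face value with equal groups, the averages would be 329 with vehicle and 669 with AA147. The related Slc2a6 and Slc2a10, which encode the transporters GLUT6 and GLUT10, were called in the other direction. Their fold changes per the authors' deposited table were -0.38 (standard error 0.13; adjusted p 0.0237) and -0.40 (standard error 0.14; adjusted p 0.0209), with means of 396 and 299.

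The main glucose transporter gene of the class did not show a change of this size. Slc2a1, which encodes GLUT1, had the highest mean of the class, 4678, and a fold change of 0.06 with a 95% interval from -0.07 to 0.19 (adjusted p 0.623) per the authors' deposited table. That interval leaves out a change as large as that of Slc2a5. Slc2a8, for the intracellular transporter GLUT8, was likewise not called, at 0.06 with an interval from -0.11 to 0.22 per the authors' deposited table. Slc2a9, a urate transporter gene, had -0.81 (standard error 0.32) at a mean of 51.0 per the authors' deposited table and lay just above the threshold, with an adjusted p of 0.0564. Slc50a1, the mouse gene of the SWEET sugar transporters, had -0.22 (standard error 0.089; adjusted p 0.063) per the authors' deposited table and was called only with fold changes centred on abundant genes.

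The Slc5 family is coupled to sodium, and 6 of its 9 members, counting those placed in other classes, were too low for an adjusted p. Slc5a3, which imports the osmolyte myo-inositol, had an estimate of 0.25 with an SE of 0.40 at a mean of 539 per the authors' deposited table. This SE was 3.55 times the median SE of genes expressed at a similar level, the only such ratio of 1.5 or more among the 77 members with a mean of at least 100. The longest annotated Slc5a3 transcript has 11158 bases. It shares 404 bases, or 3.62% of the canonical transcript, with Mrps6 on the same strand. Mrps6, a mitochondrial ribosomal protein gene, had -0.12 (standard error 0.078) per the authors' deposited table. The source of the large SE of Slc5a3 was not tested. The interval of Slc5a3, from -0.54 to 1.03, includes no change as well as values of the size called for Slc2a6 and Slc2a10.

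Genes that act on sugar inside the cell were read from a list of 13, of which 11 were in the table. This and the other partner lists were drawn up with earlier results of these data known, so their shares of calls test nothing. There were 4 positive and 3 negative calls, beside 9.05% and 11.1% of all genes, and the list's median was 0.09. Txnip, which encodes a glucose-responsive inhibitor of glucose uptake, was the lowest at -0.59 (standard error 0.083; adjusted p 3.61e-11) per the authors' deposited table. Its relative Arrdc4 had -0.28 (adjusted p 0.0408) per the authors' deposited table. Akr1b3, which reduces glucose to sorbitol, had 0.44 (adjusted p 0.0281), and Hk1, which phosphorylates glucose on entry, 0.22 (adjusted p 7.62e-04) per the authors' deposited table. The other calls per the authors' deposited table were Gpi1 at 0.20, Tbc1d4 at 0.25 and Tbc1d1 at -0.17.

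**Figure D2:**
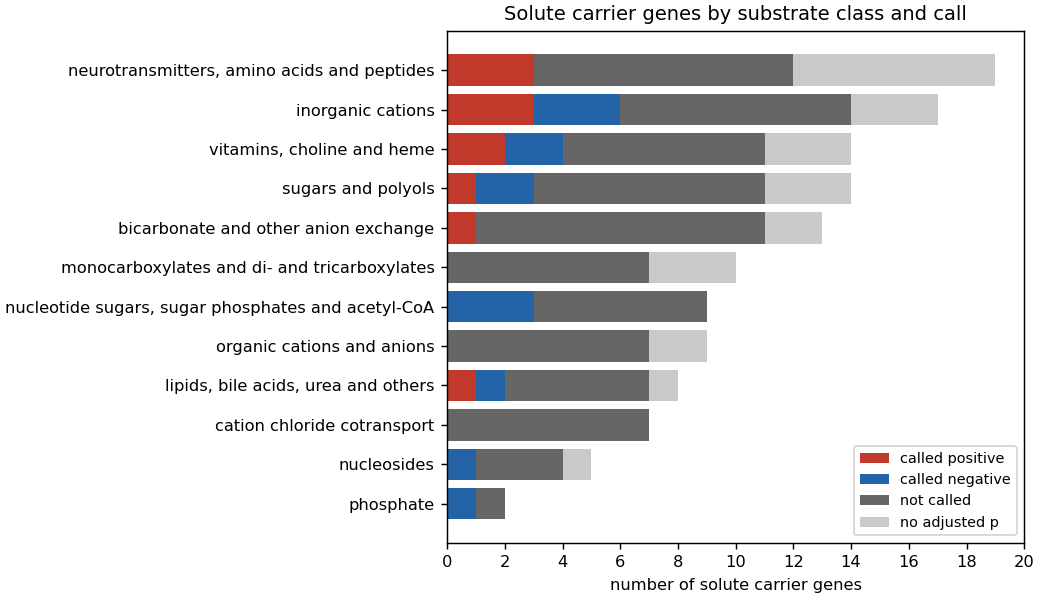
Number of solute carrier genes in each of the 12 substrate classes (bar length), divided by call. The class of inorganic cations has the most calls, 6 among its 14 genes with an adjusted p, beside 20.2% of all genes. No call falls in 3 classes.

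The nucleoside transporters were led by Slc29a1, which encodes the equilibrative transporter ENT1. It had a mean of 3145 with a fold change of -0.51 (standard error 0.078; adjusted p 2.21e-09) per the authors' deposited table, the lowest value of any member with a mean of at least 100. At face value the averages would be 3699 with vehicle and 2590 with AA147. Of the canonical Slc29a1 transcript, 18.5% overlaps opposite-strand genes that are not in the table. The other members with an adjusted p were not called. ENT2, encoded by Slc29a2, had -0.10 with an interval from -0.40 to 0.20, and the lysosomal ENT3, encoded by Slc29a3, had 0.00 with an interval from -0.29 to 0.28 per the authors' deposited table. Both intervals exclude the estimate for Slc29a1, although the differences between the genes were not tested. The concentrative transporter gene Slc28a2 had a mean of 37.0 with a fold change of -0.34 (standard error 0.36) per the authors' deposited table.

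The enzymes that trap nucleosides and bases after entry went both ways. Of 13 salvage genes in the table, 2 were called positive and 3 negative, beside 9.05% and 11.1% of all genes, with a median of 0.06. Aprt, which salvages adenine, had -0.47 (adjusted p 6.76e-09), and Adk, the adenosine kinase gene, -0.36 (adjusted p 2.08e-06) per the authors' deposited table. Dguok, the mitochondrial deoxyguanosine kinase gene, was also negative at -0.31 (adjusted p 0.0103) per the authors' deposited table. The positive calls per the authors' deposited table were Pnp, for purine nucleoside phosphorylase, at 0.33 (adjusted p 2.01e-04) and Hprt at 0.24 (adjusted p 0.00754).

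Of 9 genes for nucleotide sugars, sugar phosphates and acetyl-CoA, which load the Golgi and endoplasmic reticulum, 3 were called negative and 0 positive, beside 11.1% and 9.05% of all genes; the 8 with a mean of at least 100 had a median of -0.03, so the class as a whole was centred near no change. Slc33a1, which carries acetyl-CoA into the endoplasmic reticulum, had -0.39 (standard error 0.079, adjusted p 1.62e-05) at a mean of 1157 per the authors' deposited table. Of its canonical transcript, 36.8% overlaps Gm26850 on the opposite strand. Slc35a2, which carries UDP-galactose into the Golgi, had -0.33 (standard error 0.089; adjusted p 0.00195) at a mean of 1161 per the authors' deposited table. For Slc37a2, a sugar phosphate exchanger gene with a mean of 59.1, the authors' deposited table gave -0.85 (standard error 0.30; adjusted p 0.0246).

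The remaining Golgi transporters were not called. Slc35a4 was close to the threshold at -0.24 (adjusted p 0.0554), whereas the CMP-sialic acid transporter gene Slc35a1 had -0.11 and the UDP-N-acetylglucosamine transporter gene Slc35a3 had 0.19 per the authors' deposited table. Of the canonical Slc35a4 transcript, 100% overlaps exons of Gm58354 on the same strand or Apbb3 on the opposite strand. Slc37a4, which moves glucose 6-phosphate into the endoplasmic reticulum, had 0.22 (adjusted p 0.337) per the authors' deposited table.

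The bicarbonate and anion exchangers had 1 call among 11 genes with an adjusted p, beside 20.2% of all genes. Slc4a8, which encodes a sodium-driven exchanger of chloride for bicarbonate, had a mean of 2076 with a fold change of 0.24 (standard error 0.071; adjusted p 0.00511) per the authors' deposited table. The other 10 were not called. Slc4a2, for the anion exchanger AE2, was its most abundant gene at 4976 and had 0.09 with an interval from -0.04 to 0.22 per the authors' deposited table. The sodium bicarbonate cotransporter genes Slc4a4 and Slc4a7 had 0.11 and -0.02 per the authors' deposited table. Slc26a11 had the lowest value of those with a mean of at least 100, -0.39 (standard error 0.18; adjusted p 0.114), per the authors' deposited table.

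Carbonic anhydrases supply bicarbonate to these exchangers. Of 14 genes in the list, 7 were in the table, and 6 of these had an adjusted p. Of the 6, 1 was called, beside 20.2% of all genes. Car13, a cytosolic enzyme, had a mean of 5102 with a fold change of -0.47 (standard error 0.059; adjusted p 7.6e-14) per the authors' deposited table, while the mitochondrial Car5b, with a mean of 12563, had -0.01 (adjusted p 0.962).

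None of the 7 cation chloride cotransporters was called, beside 20.2% of all genes. Of the 7, 5 had means of at least 100. Slc12a4, which encodes the potassium chloride cotransporter KCC1, had the highest mean of all 127 members, 5008, and a fold change of -0.15 (standard error 0.064; adjusted p 0.0919) per the authors' deposited table. Slc12a2, for the sodium-coupled cotransporter NKCC1, had -0.09 with an interval from -0.29 to 0.11, and Slc12a9 had 0.20 (adjusted p 0.0607) per the authors' deposited table. The neuronal KCC2 gene Slc12a5 had a mean of only 44.0 with a fold change of -0.33 (standard error 0.35) per the authors' deposited table. At an unadjusted p under 0.05, DESeq2 gave 2 of the 7, Slc12a4 and Slc12a9. The share of all tested genes at that unadjusted threshold was not computed, so nothing is read from this count.

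Of 10 listed kinases that regulate these cotransporters, with their scaffold and ubiquitin ligase partners, 8 were in the table, with a median of 0.11. Wnk4, an upstream kinase, had -0.70 (standard error 0.10; adjusted p 4.01e-10), and Oxsr1, which phosphorylates the cotransporters, had 0.31 (standard error 0.075; adjusted p 4.44e-04) per the authors' deposited table. Wnk1, the upstream kinase gene with the highest mean, had 0.11 (adjusted p 0.489) per the authors' deposited table.

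The monocarboxylate class had 0 calls among 7 genes with an adjusted p, beside 20.2% of all genes. No more is read from a count this small. Slc16a1, which encodes the lactate and pyruvate transporter MCT1, had a mean of 3020 with a fold change of -0.07 and an interval from -0.22 to 0.08 (adjusted p 0.61) per the authors' deposited table. Slc16a3, for the lactate exporter MCT4, had a mean of 5.62 per the authors' deposited table and no adjusted p. The next most abundant genes of the class, Slc16a13 and the aromatic amino acid transporter gene Slc16a10, had 0.29 (adjusted p 0.0987) and 0.31 (adjusted p 0.0599) per the authors' deposited table. By the unadjusted p of DESeq2, these 2 of the 7 lay under 0.05. No share of all tested genes was computed for that unadjusted threshold, and nothing is read from this count either.

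Of 7 listed partners of MCT1 and enzymes of lactate metabolism in the table, 4 were called negative and 0 positive. The shares of all genes were 11.1% and 9.05%, and the median of the 7 was -0.32. The list was drawn up with earlier results of these data known, so its share of calls tests nothing. Emb, which encodes the MCT chaperone embigin, had -0.63 (standard error 0.091; adjusted p 1.95e-10), whereas Bsg, which encodes the chaperone basigin, had -0.02 (adjusted p 0.847) at a mean of 16540 per the authors' deposited table. The lactate dehydrogenase genes Ldha and Ldhb had -0.40 (adjusted p 2.86e-10) and -0.32 (adjusted p 0.00379) per the authors' deposited table. Pdk1, a kinase that holds pyruvate back from the mitochondrion, had -0.44 (adjusted p 5.38e-05) per the authors' deposited table.

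**Figure D3:**
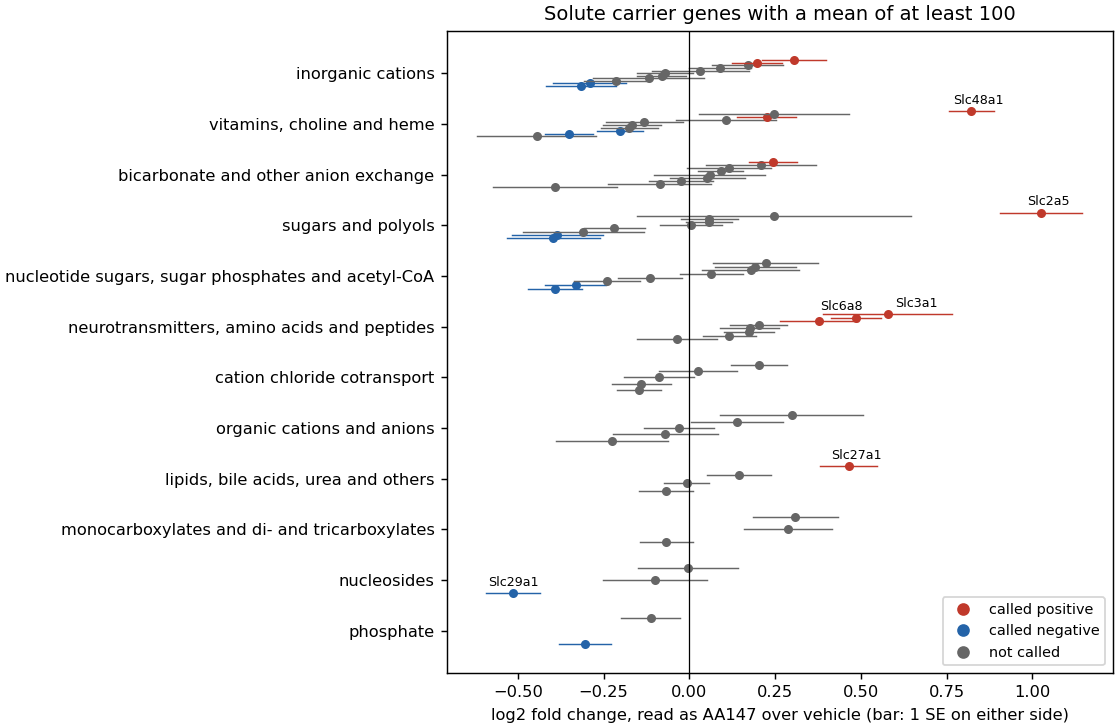
Log2 fold changes of the 77 solute carrier genes with a mean of at least 100, by substrate class; bars span 1 SE on either side. Slc2a5 and Slc48a1 lie apart on the positive side at 1.02 and 0.82, and Slc29a1 has the lowest value at -0.51.

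Among organic cation and anion transporters, 7 genes had an adjusted p and 0 were called, beside 20.2% of all genes. The unadjusted p of DESeq2 was also under 0.05 for 0 of the 7, a count with no share of all tested genes to set beside it. The carnitine transporter gene Slc22a5 was the most abundant at 574, with a fold change of -0.03 and an interval from -0.23 to 0.17 per the authors' deposited table. Slc22a4, for the ergothioneine transporter, had 0.30 (standard error 0.21; adjusted p 0.347) at a mean of 122 per the authors' deposited table.

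Inorganic cation transporters had 3 positive and 3 negative calls among 14 genes with an adjusted p, beside 9.05% and 11.1% of all genes. Both divalent metal transporters of the Slc11 family were positive. Slc11a1, which encodes the phagosomal transporter NRAMP1, had the largest fold change of any called member, 3.03 (standard error 0.65; adjusted p 6.38e-05), at a mean of 18.4 per the authors' deposited table. At face value this corresponds to averages of 4.0 with vehicle and 32.7 with AA147, both low counts. Over 588 bases its canonical transcript of 2601 bases was 93.9% identical to Gm4829, and its value is uncertain to the extent that reads were shared. Slc11a2, for the iron transporter DMT1, had a small fold change of 0.20 (standard error 0.072; adjusted p 0.0333) at a mean of 2302 per the authors' deposited table.

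The magnesium transporters of the Slc41 family were called in opposite directions. Slc41a1 had 0.30 (standard error 0.092; adjusted p 0.0079) and Slc41a2 had -0.29 (standard error 0.11; adjusted p 0.0355) per the authors' deposited table, while Slc41a3 at -0.12 was not called.

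The sodium proton exchangers had 2 negative calls among 5 genes with an adjusted p, beside 11.1% of all genes. Slc9a9, for the endosomal exchanger NHE9, had -1.16 (standard error 0.29; adjusted p 9.93e-04) at a mean of 64.8, and Slc9a5, for NHE5, had -0.32 (standard error 0.10; adjusted p 0.0139) at a mean of 756 per the authors' deposited table. The copper importer gene Slc31a1 had -0.08 with an interval from -0.22 to 0.06 per the authors' deposited table.

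Both phosphate importers had negative estimates and 1 was called, beside 20.2% of all genes. Slc20a2, for PiT2, had -0.30 (standard error 0.076; adjusted p 7.59e-04) at a mean of 1671, and Slc20a1, for PiT1, had -0.11 (standard error 0.086; adjusted p 0.4) at a mean of 1164 per the authors' deposited table. The difference between them was not tested. The pyrophosphate transporter gene Ank was called at -0.23 (adjusted p 0.00177) per the authors' deposited table. It was the only call among 6 measured genes for phosphate and calcium handling, beside 20.2% of all genes. The median of the 6 was 0.01.

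The vitamin, choline and heme class held the call with the smallest adjusted p of all members. Slc48a1, which encodes HRG1, the transporter that releases heme from lysosomes, had a mean of 4417 with a fold change of 0.82 (standard error 0.065; adjusted p 3.13e-34) per the authors' deposited table. At face value the averages would be 3192 with vehicle and 5642 with AA147. Per kilobase of its longest transcript it also had the highest level of all members, 1637 normalized counts per kilobase. Of its canonical transcript, 88.8% overlaps exons of Hdac7, a gene on the opposite strand with a negative estimate. Slc52a2, a riboflavin transporter gene, was called at 0.23 (standard error 0.086; adjusted p 0.0459), the positive call nearest to the threshold per the authors' deposited table.

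Both choline transporter-like genes with an adjusted p were negative. Slc44a1 had -0.35 (standard error 0.070; adjusted p 1.25e-05) and Slc44a2 had -0.20 (standard error 0.066; adjusted p 0.0149), with means of 2897 and 3370 per the authors' deposited table. The folate transporter gene Slc19a1 at -0.17 and the thiamine transporter gene Slc19a2 at -0.18 were not called (adjusted p 0.157 and 0.123 per the authors' deposited table). Slc46a3 at -0.45 (standard error 0.17) had an adjusted p of 0.05001 per the authors' deposited table, which lies just over the threshold, and with fold changes centred on the reference genes or on abundant genes it was called. The ascorbate transporter gene Slc23a2 had -0.13 with an interval from -0.35 to 0.09 per the authors' deposited table.

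Of 12 listed genes of folate and vitamin use, 2 were called positive and 1 negative, beside 9.05% and 11.1% of all genes, with a median of -0.10. Per the authors' deposited table they included Flad1, which makes FAD from riboflavin derivatives, at 0.31 (adjusted p 0.0293), and Btd, which frees biotin, at -0.38 (adjusted p 3.63e-05).

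The class of neurotransmitter, amino acid and peptide transporters had 3 positive and 0 negative calls among 12 genes with an adjusted p, beside 9.05% and 11.1% of all genes, and the 8 genes whose mean reached 100 had a median of 0.19. None of the 3 encodes a plasma membrane transporter of a classical neurotransmitter. Slc6a8, for the creatine transporter, had a mean of 2966 with a fold change of 0.49 (standard error 0.074; adjusted p 1.81e-09) per the authors' deposited table, or averages of 2472 with vehicle and 3460 with AA147 at face value. Slc17a5, for the lysosomal sialic acid exporter sialin, had 0.38 (standard error 0.11; adjusted p 0.00755) at a mean of 448 per the authors' deposited table. Slc3a1, for the heavy chain rBAT of a cystine transporter, had 0.58 (standard error 0.19; adjusted p 0.0146) at a mean of 151 per the authors' deposited table. It shares 26.8% of its canonical transcript with Prepl, a gene on the opposite strand with a like estimate.

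The other 9 genes of this class with an adjusted p were not called. The taurine transporter gene Slc6a6 had the highest mean of the class, 3909, and a fold change of 0.12 per the authors' deposited table. Its interval ran from -0.03 to 0.27. Per kilobase of the longest transcript, Slc6a8 was higher, at 743 beside 594. Slc15a4 and Slc36a1, for transporters of the lysosomal membrane, had 0.20 (adjusted p 0.0643) and 0.17 (adjusted p 0.0784) per the authors' deposited table. The serotonin transporter gene Slc6a4 and the noradrenaline transporter gene Slc6a2 had means of 2.63 and 3.01 per the authors' deposited table, and the vesicular monoamine transporter gene Slc18a2 had a mean of 93.4 with a fold change of 0.06 (standard error 0.23).

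In the class of lipids, bile acids and urea, Slc27a1, which encodes the fatty acid transport protein FATP1, had 0.46 (standard error 0.083; adjusted p 5.19e-07) at a mean of 1341 per the authors' deposited table. The related Slc27a4, for FATP4, had a mean of 2760 with a fold change of -0.01 and an interval from -0.14 to 0.12 per the authors' deposited table. Slc14a1, for the urea transporter UT-B, had the lowest fold change of the called members, -1.33 (standard error 0.27; adjusted p 2.18e-05), at a mean of 70.7 per the authors' deposited table. Its interval ran from -1.86 to -0.79.

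Levels could be compared between genes only per length. By mean normalized count per kilobase of the longest transcript in GENCODE release M39, Slc48a1 was followed by Slc12a4 at 1290.4, Slc4a2 at 1070.0, Slc2a1 at 1052.5 and Slc50a1 at 1010.0. With the canonical transcript in place of the longest, Slc29a1 moved from rank 7 at 805 to rank 2 at 1435. Slc48a1 stayed first at 1637, but its longest and canonical transcripts both have 2699 bases, so its level could not move. The libraries were not stranded and 88.8% of that transcript overlaps Hdac7, so the level of Slc48a1 may include reads of Hdac7. A mean of at least 1000 was reached by 35 of the 127 genes, and 27 lay under 10.

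**Figure D4:**
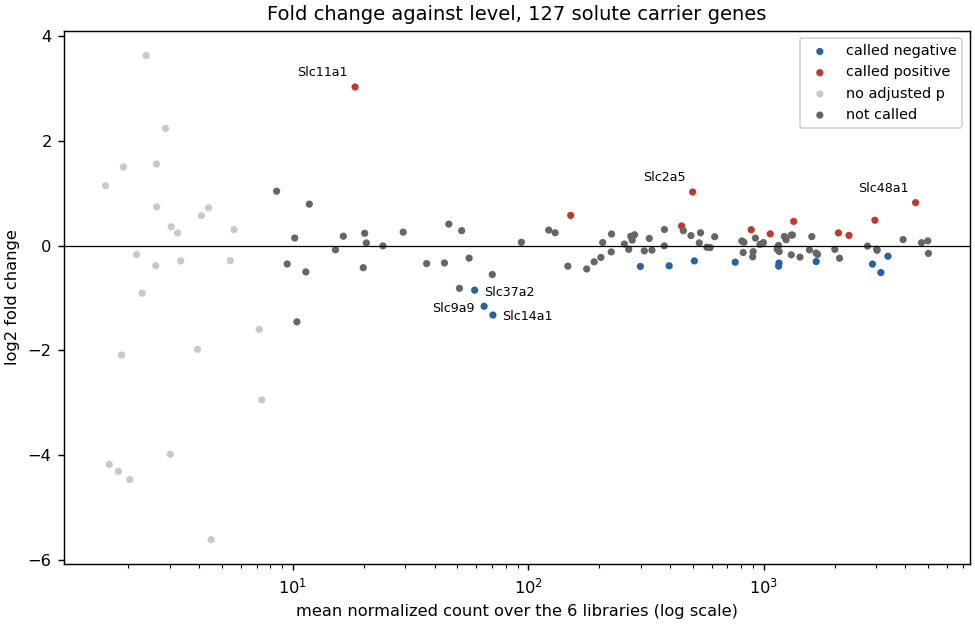
Log2 fold change of all 127 solute carrier genes against the mean normalized count (log axis), coloured by call. The genes with no adjusted p, in light grey, all have means of 7.37 or less and spread from -5.62 to 3.63.

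A further 25 members, or 19.7%, had no adjusted p, beside 17.5% of all genes. Of these, 5 had an unadjusted p under 0.05, or 20%, beside 5.01% of the 2875 genes without an adjusted p. All 5 had negative estimates and means from 1.66 to 7.37 per the authors' deposited table. They included Slc5a1, for the sodium glucose cotransporter SGLT1, with an unadjusted p of 0.00254 at a mean of 7.37 per the authors' deposited table. Among them were also Slc6a2 with an unadjusted p of 0.0136, Slc8a3 with 0.0234 and Slc24a1 with 0.0482 per the authors' deposited table. No fold change is read from means this low, and no call rests on these genes.

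The libraries were not stranded, so reads from overlapping genes cannot be told apart. In GENCODE release M39, exons of 19 members share bases with exons of another gene in the table, and 5 of these members were called. For Slc48a1 the shared part is 88.8% of its canonical transcript, which overlaps exons of Hdac7 on the opposite strand. Hdac7 had a higher mean, 12125, and a fold change of the opposite sign, -0.21 (standard error 0.061; adjusted p 0.00615), per the authors' deposited table. For Slc3a1 the shared part is 26.8%, with Prepl on the opposite strand, whose mean of 1540.0 was higher and whose fold change of 0.55 (standard error 0.079; adjusted p 1.2e-10) was close to the 0.58 of Slc3a1 per the authors' deposited table. The annotation behind the counts and the way reads of these pairs were assigned are not given in the sources used here. For the other called members with such an overlap, Slc20a2, Slc6a8 and Slc52a2, the shared part was at most 4.49%. Without these 5 members, 7 positive and 12 negative calls were left. Some called members overlap genes outside the table on the opposite strand. The shared part of the canonical transcript was 36.8% for Slc33a1, 18.5% for Slc29a1 and 18.4% for Slc9a5.

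**Figure D5:**
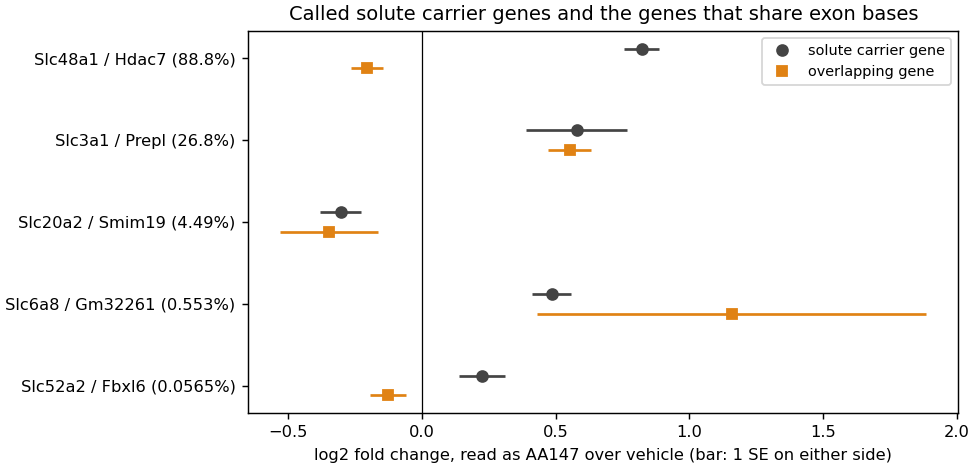
Log2 fold changes of the 5 called solute carrier genes that share exon bases with another gene of the table (circles) and of that gene (squares), with bars of 1 SE on either side and the shared percent of the canonical transcript beside the names. Slc48a1 and Hdac7 have opposite signs, 0.82 and -0.21, while Slc3a1 and Prepl have nearly the same value, 0.58 and 0.55.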

How the data were processed

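The measurements are RNA-seq of 3 AA147 and 3 vehicle libraries from HT22 cells, made as non-stranded mRNA libraries per the labels' protocols. Per the submitters' processing notes, DESeq2 and the build mm9 were used; aligner, counter, annotation and filters are not given in the sources used here. The authors deposited 1 comparison of the groups. It holds a mean normalized count per gene, a signal scaled by the authors over the libraries, a log2 fold change with its standard error as the authors deposited them, a deposited score that is the Wald statistic, and a deposited p-value with its adjusted p-value. The statistic equalled the fold change over its SE within 3.06e-07, and the adjusted p a Benjamini-Hochberg adjustment over 13597 genes within 7.58e-07. Genes with no adjusted p had means of at most 8.41 and stayed without a call. Depth per library is unknown, so precision is given by the authors' SE.

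From these values, 95% intervals (normal), SE ratios against the 200 genes of nearest mean, group averages implied by mean and fold change, and counts by class were computed. No refit was possible from 1 line per gene. Lengths and exon overlaps came from GENCODE M39 (GRCm39), which matched all 127 symbols; this is not the build of the counts, and its coordinates are not used. Promoter sequence is RefSeq's. The members, classes and partner lists were chosen with earlier results of these data known. Genes named were every called member, the member with the highest mean in each class, and called partner genes. Members with a mean of at least 100 and an absolute fold change of at least 0.5 were also named. So were the 5 on either side of the threshold. Any other was chosen after its values were seen. A few genes that this rule covers, and 1 partner list, are not reported here. Alternatives were other thresholds, adjustments, centres and limits on the mean, and removal of overlapping genes. The code for calls was tested on simulated data. Python 3.11.15, pandas 2.3.3, SciPy 1.17.1 and matplotlib 3.10.9 were used.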

Additional observations from a re-analysis of the deposited data

How the results depend on the processing

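The 24 calls became 15 when the adjusted p had to lie under 0.01, 9 by Bonferroni and 8 with a fold limit of 0.5 on the log2 scale, each stricter by construction. The 11 positive calls became 5 with Bonferroni and 4 with the fold limit. The 13 negative calls became 7 at the adjusted p under 0.01, 4 with Bonferroni and 4 with the fold limit. Adjusting over all genes with a p gave 25 calls, of which 23 were among the 24 and the others, Slc5a1 among them, had no deposited adjusted p. Centring on abundant genes gave 25, of which 22 were among the 24, and centring on the reference genes gave 25, which included all 24. Centring moved every fold change alike, by 0.0132 on abundant genes and 0.00231 on reference genes; of the 12 reference genes 1, Hprt, was called, and their median was 0.00. Removals of overlapping genes were chosen after seeing the data. Leaving out every member whose exons overlap any GENCODE gene left 11 calls, 5 positive and 6 negative, because 13 called members overlap one, mostly unnamed transcripts. Leaving out only those that overlap a gene of the table left 19, of which 7 were positive.

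Slc52a2 lost its call when all genes with a p were adjusted, and Slc52a2 and Slc11a2 lost theirs on abundant genes, where Slc35a4, Slc46a3 and Slc50a1 gained one. The 9 calls kept with Bonferroni were Slc48a1, Slc2a5, Slc6a8, Slc29a1, Slc27a1, Slc44a1, Slc33a1, Slc14a1 and Slc11a1. No paired analysis was possible because no values of single libraries were at hand. For the same reason leaving out each replicate was not run. At a mean under 100, 4 of the 25 members with an adjusted p were called, or 16%, beside 20 of 77, or 26%, above it. For all tested genes the call share was 20.2%, and 23.8% once means under 100 were left out. Low-mean genes of the whole table were thus also called less often. Their own share was not computed, so no shortage of calls in low-mean members is read from these counts.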
